A study of Mus musculus with 29 samples.

Results

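A set of 10 matricellular genes was followed in RNA from the mouse aortic arch. They were the thrombospondins Thbs1, Thbs2, Thbs3 and Thbs4, the tenascins Tnc and Tnxb, and Postn, Sparc, Ccn2 and Fn1, which are 10 of the 56748 genes in the count table. They were listed by name as thrombospondin, tenascin, CCN and related genes and matched by symbol, by a rule that used no measured value, though the list was drawn up with earlier results of these data known. Counts of 28 mice in 6 groups were compared. The mutant was Ercc1Δ/-, with 1 null Ercc1 allele and 1 allele that gives a truncated protein, in every cell of an F1 hybrid of C57BL6J and FVB, and the controls were WT littermates. Mice fed ad libitum (AL) were taken at 6 weeks (5 WT and 5 Ercc1Δ/-) and at 22 weeks (4 WT and 4 Ercc1Δ/-), and mice on dietary restriction (DR) at 22 weeks (5 WT and 5 Ercc1Δ/-). DR began at 7 weeks of age with 10% less food and reached 30% less from 9 weeks. All groups ate AIN93G pellets, and each group held males and females. The AL groups of 22 weeks held 3 males and 1 female (sample 018) in WT, and 2 males and 2 females in Ercc1Δ/-. Each other group held 3 males and 2 females. The study asked how loss of DNA repair and DR change the aorta, and each gene was compared by genotype, age and diet.

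Matricellular proteins are secreted into the extracellular matrix, where they bind matrix fibres, growth factors and cell surface receptors such as integrins, and tune how cells sense the matrix more than they carry load. Thrombospondins bind CD36, CD47 and integrins, and thrombospondin-1 can activate latent TGF-beta. Tenascin-C is a protein of developing and injured tissue, tenascin-X spaces collagen fibrils, and periostin and SPARC take part in collagen assembly. CCN2, also called CTGF, is a classic target of TGF-beta and of YAP/TAZ, and fibronectin is the glycoprotein on which other matrix proteins are laid down. In arteries these genes are used by smooth muscle cells and fibroblasts, and several of them by immune or endothelial cells as well.

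Levels are given as CPM, the counts scaled to 1000000 per normalized library. Gene counts per sample ran from 921167 to 9616382, and at 22 weeks on AL every Ercc1Δ/- library (1294980 to 3855444) was smaller than every WT library (3903589 to 9616382). Ercc1 itself, which checks the genotype, was lower in Ercc1Δ/- at 6 weeks (11.3 ± 2.47 against 27.4 ± 9.10 CPM, SD, n = 5 each), at 22 weeks on AL (15.9 ± 1.98 against 31.0 ± 2.34, n = 4 each) and on DR (15.4 ± 6.38 against 30.9 ± 3.95, n = 5 each). 1 WT library of 6 weeks, sample 011, held Ercc1 at 14.1 CPM from 13 counts, inside the Ercc1Δ/- range of 8.42 to 15.2. The smooth muscle marker Myh11 was abundant in every library, at 5236 CPM or more. In the Ercc1Δ/- DR group, sample 016 stood apart, with 1092 CPM summed over 6 macrophage markers where the other 4 libraries of its group lay at 287.7 to 387 CPM. For Thbs1, Fn1, Ccn2 and Tnc, the change with DR in Ercc1Δ/- is given with and without sample 016. Sample 003, a WT mouse of 22 weeks on AL with few counts, was left out, as the study did. A gene was called where its adjusted p in edgeR was at most 0.05 with at least a 1.2-fold change. In tissue RNA, fewer cells of a type and less RNA per cell cannot be told apart.

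Per kilobase of merged exon, Sparc was the most abundant of the genes, with a mean of 989 CPM per kb (SD 605 over 28 samples). Ccn2 followed with 751 CPM per kb (SD 267), then Postn with 200.5 (SD 47.9), Fn1 with 133 (SD 55.8), Tnxb with 58.2 (SD 13.0) and Thbs3 with 31.2 (SD 4.11). Thbs2 at 8.57 CPM per kb (SD 1.28) and Tnc at 8.18 (SD 2.35) did not differ beyond their spread. Thbs1 had 3.23 CPM per kb (SD 3.10) and Thbs4 0.738 (SD 0.453). The first places depended on age. Sparc led in WT mice of 6 weeks with 1495 CPM per kb ± 222 against 1112 ± 270 for Ccn2, and Ccn2 led in WT mice of 22 weeks on AL with 956 ± 176 against 706 ± 74.2 for Sparc. Because reads were counted over whole genes, introns included, length by exons is an approximation, and per kilobase of gene span Ccn2 came before Sparc (671 against 147 CPM per kb).

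**Figure D1:**
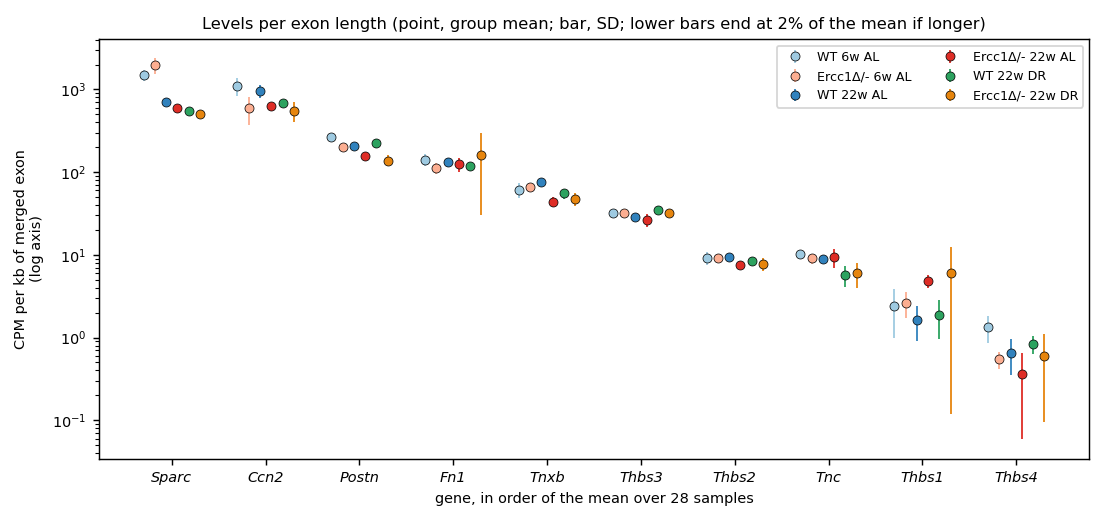
Mean level of each gene in each of the 6 groups, in CPM per kilobase of merged exon on a log axis, with genes ordered by their mean over 28 samples and bars giving the SD between mice. Sparc and Ccn2 lie highest and Thbs4 lowest, and on the log axis the bar of Thbs1 in Ercc1Δ/- mice on DR is the widest, followed by those of Thbs4 in Ercc1Δ/- mice of 22 weeks and of Fn1 in Ercc1Δ/- mice on DR.

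Summed over the 10 genes, WT mice of 6 weeks held 15665 CPM ± 1818 (SD, n = 5) and Ercc1Δ/- mice of that age 14991 CPM ± 1595. At 22 weeks on AL the sums were 11293 CPM ± 965 in WT and 8806 CPM ± 776 in Ercc1Δ/-. Most of this difference in level between ages lay in Sparc.

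**Figure D2:**
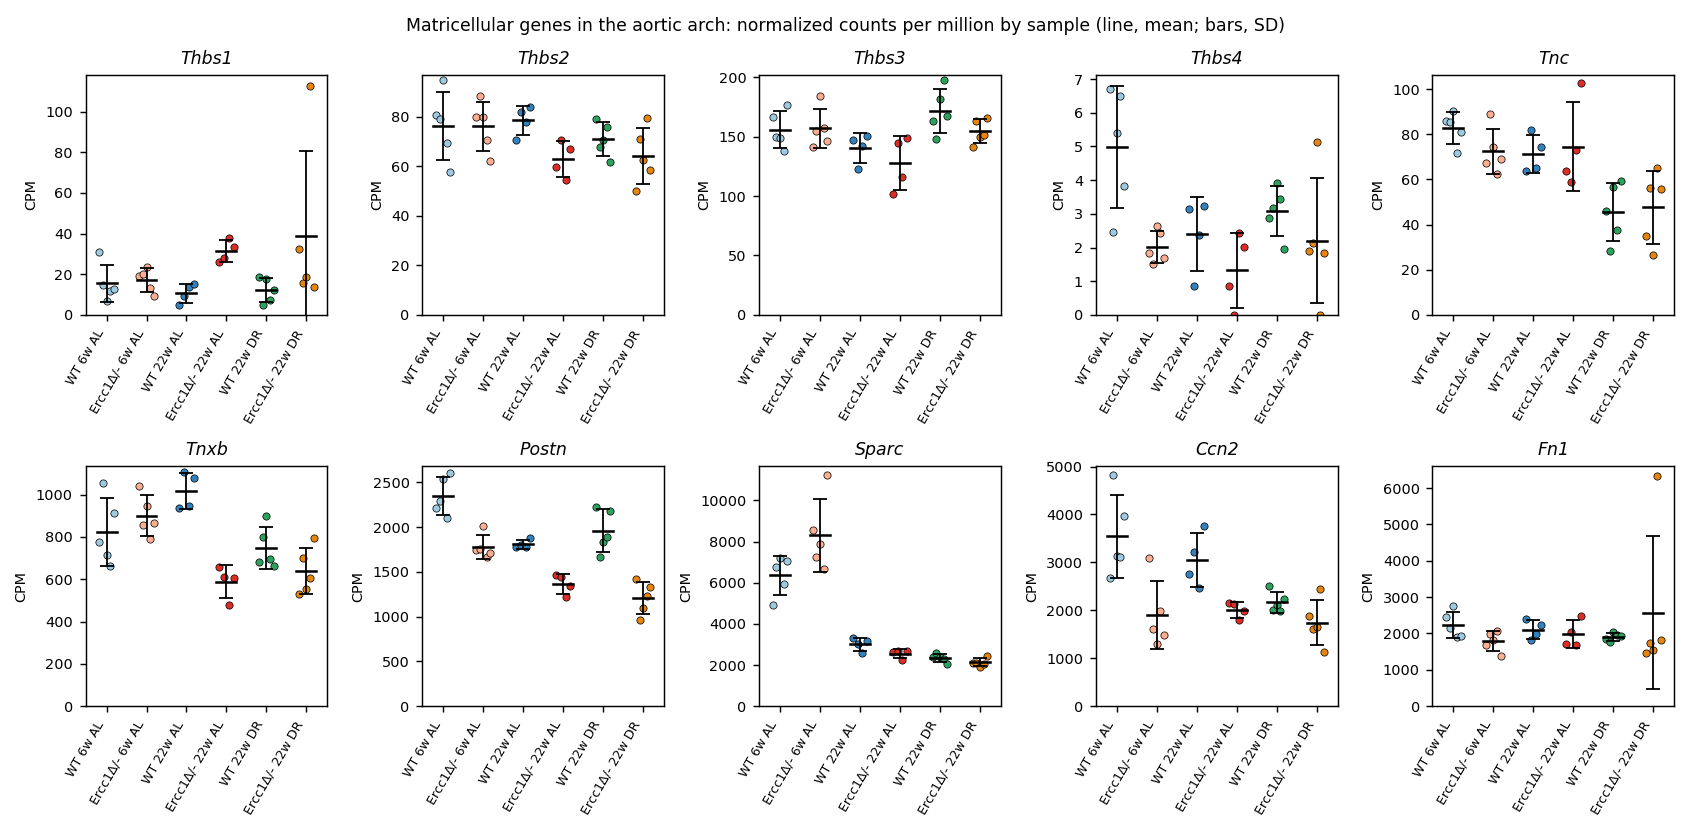
CPM of each gene in every mouse of the 6 groups, 1 panel a gene, with lines for group means and bars for the SD. Sparc is high in all 10 mice of 6 weeks, Postn is lower in Ercc1Δ/- than in WT in each pair of groups, and 1 mouse on DR (sample 016) lies at 112 CPM for Thbs1 and 6320 CPM for Fn1.

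Sparc, which encodes a collagen-binding glycoprotein also called osteonectin, fell with age in both genotypes. In WT mice it was at 4933, 5920, 6754, 7064 and 7194 CPM at 6 weeks and at 2577, 3005, 3154 and 3312 CPM at 22 weeks. The groups did not overlap, and the log2 change of -1.101 (SE 0.12, adjusted p = 7.64e-05) had the smallest p of all 12353 genes tested. In Ercc1Δ/- mice it was at 6658, 7231, 7865, 8569 and 11219 CPM at 6 weeks and at 2241, 2633, 2667 and 2675 CPM at 22 weeks. The older mice again lay below all younger ones, with a log2 change of -1.67 (SE 0.12, adjusted p = 2.10e-08), the second smallest p. The change with age was larger in Ercc1Δ/- by 0.57 in size on the log2 scale (log2 difference -0.57, SE 0.17), which did not pass the test (adjusted p = 0.137). DESeq2 (adjusted p = 0.04996) and the fit without a filter on low counts (adjusted p = 0.0196) called that difference.

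The gene lies on chromosome 11, bases 55285317 to 55314067 of the minus strand in GRCm39 (ENSMUSG00000018593). Bases upstream of 7 of the 10 genes were found in the RefSeq promoter table of build GRCm38.p6, which gives 9 start sites for them. The stretches of Sparc, Postn and Tnxb are shown because these 3 genes were the ones called lower with age in Ercc1Δ/- mice, a comparison in which 4.69% of all tested genes were called and 2.57% called lower. In each, the 250 bases before the start site were searched on both strands for 6 motifs, namely TATAAA, the AP-1 letters TGANTCA, the TEAD letters GGAATG, the SMAD letters CAGACA, the GC box GGGCGG and the CArG box, and matches are in capitals. For Sparc, chr11:55420081-55420330 on the minus strand held the SMAD letters as the reverse complement from base -36 to base -31, counted back from the start site, letters found in 17.1% of the 32851 stretches in the table.
Sparc: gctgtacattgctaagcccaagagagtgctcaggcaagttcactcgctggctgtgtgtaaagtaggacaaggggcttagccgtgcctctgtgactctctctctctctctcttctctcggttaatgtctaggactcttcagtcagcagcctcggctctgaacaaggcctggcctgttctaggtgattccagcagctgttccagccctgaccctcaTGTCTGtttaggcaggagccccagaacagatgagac
It held none of the other motifs. A match is a description of the letters and not a binding site.

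Over the 28 samples, the tested genes whose log2 CPM, centred on the gene's mean, stayed nearest to Sparc were the fibrillar collagen genes Col1a1, Col1a2 and Col3a1. Their mean absolute distances from Sparc were 0.20, 0.23 and 0.24 on the log2 scale, where the median gene was at 0.73. These samples share the steps of age, genotype and diet, so the distance describes a common pattern only. The 6 tested fibrillar collagen genes had a median log2 change with age of -0.67 in WT, where 3 were called lower beside 0.235% of all genes called, and of -1.26 in Ercc1Δ/-, where 5 were called lower beside 2.57% of all genes. In the interaction of genotype and age Col3a1 (log2 difference -1.28, adjusted p = 0.0109) and Col1a2 (-0.88, adjusted p = 0.0166) were called. The summed CPM of 7 fibroblast markers overlapped between ages, at 7038 to 8189 CPM in WT mice of 6 weeks and 6204 to 7537 CPM at 22 weeks. In Ercc1Δ/- mice the sums overlapped too, at 6540 to 8111 and 5632 to 7716 CPM. Gsn, with a median of 4044 CPM, and Dcn, with 1536 CPM, weighed most in these sums. The median log2 change of the 7 markers with age was -0.09 in WT and -0.13 in Ercc1Δ/-.

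**Figure D3:**
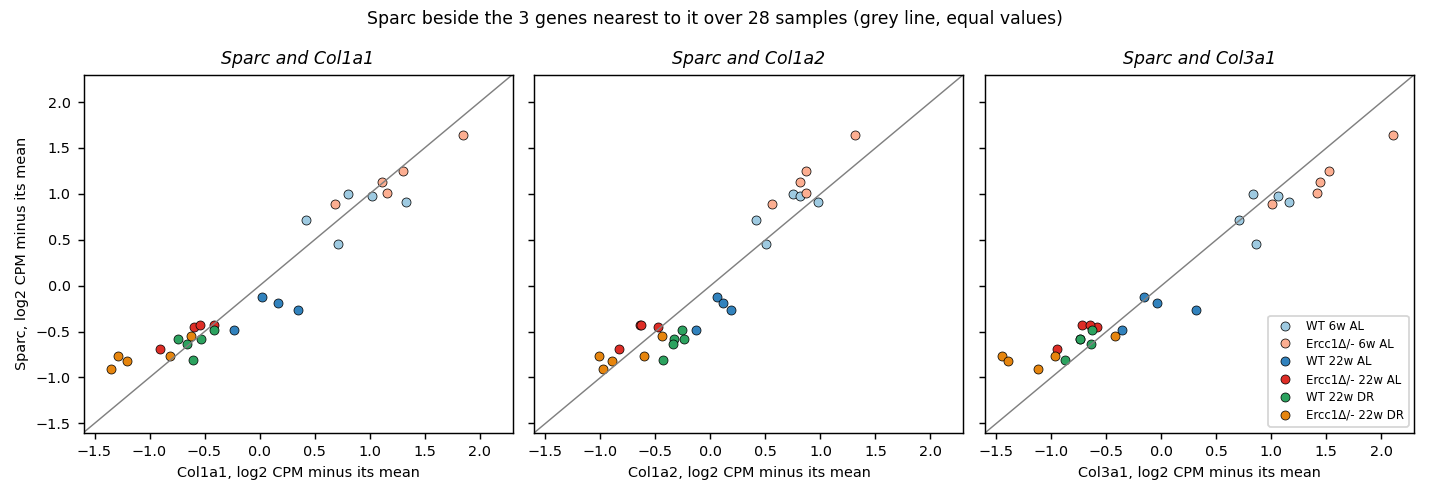
Log2 CPM minus the gene's mean for Sparc (vertical axis) against Col1a1, Col1a2 and Col3a1 (horizontal axes) in 28 samples coloured by group, with a grey line of equal values. The 10 mice of 6 weeks lie at the upper right in all 3 panels, and the points stay near the line at mean distances of 0.20 to 0.24.

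DR brought Sparc lower still in the means. WT mice on DR were at 2047, 2313, 2414, 2415 and 2570 CPM, all below WT mice on AL, with a log2 change of -0.36 (SE 0.09) that missed the threshold (adjusted p = 0.0547). It was called without sample 025 (log2 change -0.43, adjusted p = 0.0279), by DESeq2 (adjusted p = 0.0125) and without the filter on low counts (adjusted p = 0.00255). Ercc1Δ/- mice on DR were at 1927, 2042, 2112, 2124 and 2460 CPM, overlapping those on AL, with a log2 change of -0.25 (SE 0.09, adjusted p = 0.177). Between genotypes Sparc was not called at any age or diet. At 6 weeks the means were 8308 CPM ± 1776 in Ercc1Δ/- and 6373 CPM ± 945 in WT, a log2 difference of 0.39 (SE 0.11, adjusted p = 0.0785) that DESeq2 (adjusted p = 0.0264) and the fit without the low-count filter (adjusted p = 0.0323) called.

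Postn, which encodes periostin, a protein of collagen-rich tissues, was lower in Ercc1Δ/- than in WT mice in all 3 sets of mice, which share no animal. At 6 weeks WT mice were at 2105, 2212, 2291, 2539 and 2601 CPM and Ercc1Δ/- mice at 1663, 1705, 1745, 1751 and 2009 CPM. At 22 weeks on AL, WT mice were at 1775, 1779, 1796 and 1883 CPM and Ercc1Δ/- mice at 1220, 1340, 1442 and 1467 CPM. On DR, WT mice were at 1661, 1831, 1893, 2181.6 and 2221 CPM and Ercc1Δ/- mice at 962.6, 1097, 1232, 1326 and 1425 CPM. The genotypes did not overlap in any of the 3. The log2 differences were -0.39 at 6 weeks (SE 0.08, adjusted p = 0.0132), -0.38 at 22 weeks on AL (SE 0.09, adjusted p = 0.00921) and -0.69 on DR (SE 0.10, adjusted p = 2.89e-05). The call at 6 weeks was lost with only the compared groups in the fit (adjusted p = 0.0633) and with males only (adjusted p = 0.0996). At 22 weeks on AL the call was lost without sample 018 (log2 difference -0.35, adjusted p = 0.0525) and with males only (adjusted p = 0.129). The difference between genotypes was not shown to differ between diets (log2 difference -0.30, SE 0.15, adjusted p = 0.577).

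Postn also fell with age in Ercc1Δ/- mice, from 1774 CPM ± 136 to 1367 CPM ± 113, with no overlap and a log2 change of -0.37 (SE 0.09, adjusted p = 0.0132). That call was lost without sample 004 (log2 change -0.33, adjusted p = 0.0741), without sample 026 (log2 change -0.35, adjusted p = 0.0547) and at equal depth (log2 change -0.32, adjusted p = 0.0722). It was lost as well with only the compared groups in the fit (adjusted p = 0.0626) and with males only (adjusted p = 0.185). In WT mice the change was of like size, from 2350 CPM ± 213 to 1808 CPM ± 50.6, and also without overlap (log2 change -0.39, SE 0.09), but missed the threshold (adjusted p = 0.069). DESeq2 called it (adjusted p = 1.31e-04), as did the fit with sample 003 added (adjusted p = 0.0494). The interaction of genotype and age was 0.01 on the log2 scale with an approximate interval from its standard error of -0.23 to 0.26. DR changed Postn by 0.12 in WT (interval -0.08 to 0.32) and -0.18 in Ercc1Δ/- (interval -0.38 to 0.02) on the log2 scale, and neither was called.

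Summed levels of several marker lists moved with the genotype beside Postn. The 7 smooth muscle markers summed to 31516 to 40564 CPM in WT and 23451 to 32572 CPM in Ercc1Δ/- mice at 6 weeks, to 31647 to 37904 and 16594 to 25779 CPM at 22 weeks on AL, and to 32799 to 42688 and 23256 to 25088 CPM on DR. The 7 cartilage, tendon and valve markers summed to 170.5 to 224 CPM in WT and 98.5 to 130 CPM in Ercc1Δ/- mice at 6 weeks, to 179 to 232 and 80.5 to 130 CPM at 22 weeks on AL, and to 149.5 to 223 and 66.6 to 82.0 CPM on DR. The 6 macrophage markers were higher in Ercc1Δ/-, at 199 to 500 CPM against 160 to 188 CPM in WT mice at 6 weeks, 439 to 829.2 against 197 to 298 CPM at 22 weeks on AL, and 287.7 to 1092 against 124 to 246 CPM on DR. Of the cartilage, tendon and valve list Col2a1 and Tnmd were too low to test, with medians of 0.647 and 1.13 CPM. Fmod had the highest median, 65.6 CPM, followed by Acan with 42.5 CPM. The 5 tested had a median log2 difference of 0.05 at 6 weeks, -0.37 at 22 weeks on AL and -1.06 on DR. At 6 weeks Acan alone was called, and it was lower (-1.27, adjusted p = 0.0269), where 1.70% of all genes were called. The 6 cardiac muscle markers summed higher in the Ercc1Δ/- means, at 57.4 to 175 against 21.6 to 83.5 CPM in WT mice at 6 weeks. They were at 166 to 341 against 88.4 to 217 CPM at 22 weeks on AL, and at 206 to 558 against 89.3 to 170 CPM on DR. These sums overlapped between genotypes at 6 weeks and at 22 weeks on AL. Tnnt2, with a median of 84.6 CPM, weighed most in them, and Nppa was too low to test. Over the 5 tested cardiac markers the median log2 difference was 1.34 at 6 weeks, -0.45 at 22 weeks on AL and 1.37 on DR. Tnnt2 alone was called, and it was higher at 22 weeks on AL and on DR. Fat markers were also higher in the Ercc1Δ/- means, but overlapped between genotypes in each set of mice. The part of these lists in the difference of Postn was not tested. With all libraries thinned to 921167 counts, Postn was still called at 22 weeks on AL (log2 difference -0.35, adjusted p = 0.0338).

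Postn lies on chromosome 3, bases 54268501 to 54298471 of the plus strand in GRCm39 (ENSMUSG00000027750). The promoter table holds 2 start sites for it. The stretch before the second, chr3:54360857-54361106 on the plus strand of GRCm38.p6, is shown because it held TATAAA from base -26 to base -21, letters present in 7.59% of all stretches. The stretch before the first held none of the motifs.
Postn: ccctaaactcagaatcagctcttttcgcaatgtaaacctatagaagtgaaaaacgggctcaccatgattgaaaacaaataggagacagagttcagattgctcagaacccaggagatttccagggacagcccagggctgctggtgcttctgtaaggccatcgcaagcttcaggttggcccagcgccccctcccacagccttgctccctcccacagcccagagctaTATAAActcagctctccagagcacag
No other of the motifs was found in it.

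Tnxb, which encodes tenascin-X, a large glycoprotein of collagen-rich connective tissue, changed with age in opposite directions in the means of the genotypes. In WT mice it was at 662.6, 713, 777, 915 and 1056 CPM at 6 weeks and at 937, 948, 1076 and 1104 CPM at 22 weeks, which overlapped, and the log2 change of 0.29 (SE 0.12) was not called (adjusted p = 0.442). In Ercc1Δ/- mice it was at 791, 857, 866, 947 and 1039 CPM at 6 weeks and at 477, 607.7, 609 and 659 CPM at 22 weeks. The groups did not overlap, and Tnxb fell by 0.60 on the log2 scale (SE 0.12, adjusted p = 0.00379). The interaction of genotype and age, which tests this difference, was -0.90 on the log2 scale (SE 0.17, adjusted p = 0.00972). It was called in each of the 18 fits that left out 1 sample, with values from -0.997 to -0.78, and at equal depth (-0.92, adjusted p = 0.00508).

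Tnxb at 22 weeks on AL was lower in every Ercc1Δ/- mouse than in every WT mouse, at 588 CPM ± 77.9 against 1016 CPM ± 86.1, a log2 difference of -0.76 (SE 0.13, adjusted p = 3.68e-04). At 6 weeks the genotypes overlapped (log2 difference 0.14, SE 0.11, adjusted p = 0.687). On DR the values were 663, 682, 694, 798 and 901 CPM in WT and 530, 554, 608, 700.4 and 794.5 CPM in Ercc1Δ/-, which overlapped (log2 difference -0.23, SE 0.11, adjusted p = 0.183). With males only, Tnxb was called lower in Ercc1Δ/- on DR (log2 difference -0.43, adjusted p = 0.0182).

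DR lowered Tnxb in WT mice, in which no mouse on DR reached the lowest mouse on AL (log2 change -0.46, SE 0.12, adjusted p = 0.0453). This call lay close to the threshold and was lost without any one of samples 018, 020, 025, 007, 017, 021 and 028, with adjusted p-values from 0.0642 to 0.162 in those fits. In Ercc1Δ/- mice the log2 change was 0.13 (SE 0.12, adjusted p = 0.667). The interaction of genotype and diet was 0.59 on the log2 scale (SE 0.17) and did not pass the test (adjusted p = 0.226).

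Among the 7 fibroblast markers, Pi16 was called lower with Tnxb at 22 weeks on AL (log2 difference -0.74, SE 0.20, adjusted p = 0.0201) and with age in Ercc1Δ/- (log2 change -0.98, SE 0.19, adjusted p = 0.00445). It was the only one of the 7 called in either comparison. The summed markers, in which Gsn weighed most, overlapped at 22 weeks on AL, at 6204 to 7537 CPM in WT and 5632 to 7716 CPM in Ercc1Δ/-. Tnxb lies on chromosome 17, bases 34879431 to 34938789 of the plus strand in GRCm39 (ENSMUSG00000033327). The stretch before its start site, chr17:34670285-34670534 on the plus strand of GRCm38.p6, held the AP-1 letters from base -55 to base -49, which 6.75% of all stretches hold.
Tnxb: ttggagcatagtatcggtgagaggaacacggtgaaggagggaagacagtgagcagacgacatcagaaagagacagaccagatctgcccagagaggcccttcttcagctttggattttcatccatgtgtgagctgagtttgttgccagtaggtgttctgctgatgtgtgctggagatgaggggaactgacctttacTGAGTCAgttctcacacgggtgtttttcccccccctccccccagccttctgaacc
The other 5 motifs were not among its letters.

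Tnc, the tenascin of developing and injured tissue, was lower on DR in the means of both genotypes without being called. In WT mice it was at 63.7, 64.9, 74.6 and 81.9 CPM on AL and at 28.3, 37.8, 45.9, 56.5 and 59.2 CPM on DR, and these did not overlap. In Ercc1Δ/- mice it was at 58.7, 63.7, 72.9 and 103 CPM on AL and at 26.7, 34.9, 55.5, 56.2 and 65.3 CPM on DR, with sample 016 the highest of the latter. The log2 changes were -0.68 in WT (SE 0.24, adjusted p = 0.220) and -0.63 in Ercc1Δ/- (SE 0.27, adjusted p = 0.284), or -0.78 without sample 016 (adjusted p = 0.183). The adjusted p of Tnc was 0.614 or more for each of the genotype and age comparisons and for both interactions.

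Thbs1, which encodes thrombospondin-1, a secreted ligand of CD36 and CD47, was low in all groups and higher in Ercc1Δ/- than in WT mice of 22 weeks on AL. On AL it was at 26.1, 27.8, 33.5 and 37.7 CPM in Ercc1Δ/- and at 4.72, 9.08, 13.9 and 15.0 CPM in WT mice. The genotypes did not overlap, and the log2 difference was 1.45 (SE 0.38, adjusted p = 0.0199). The call was lost without sample 018 (log2 difference 1.22, adjusted p = 0.105), without sample 004 (1.35, adjusted p = 0.0645) or without sample 026 (1.34, adjusted p = 0.0611), and also without the filter on low counts (1.37, adjusted p = 0.0756), with all 6 groups in the fit (1.62, adjusted p = 0.0621) and with males only (1.41, adjusted p = 0.120). It was kept at equal depth (1.29, adjusted p = 0.0319). The means at 6 weeks were 17.1 CPM ± 5.79 in Ercc1Δ/- and 15.5 CPM ± 9.17 in WT, with a log2 difference of -0.03 and an interval of -0.70 to 0.63. The change with age was 0.83 in Ercc1Δ/- (SE 0.36, adjusted p = 0.233) and -0.65 in WT (SE 0.36, adjusted p = 0.671) on the log2 scale, and their difference of 1.48 was not called (SE 0.52, adjusted p = 0.255).

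On DR, Thbs1 in Ercc1Δ/- mice was at 13.6, 15.9, 18.5, 32.4 and 112 CPM, the last in sample 016, and WT mice were at 4.92, 7.56, 12.3, 17.7 and 18.6 CPM. The log2 difference of 1.65 (SE 0.54, adjusted p = 0.0631) became 0.80 without sample 016 (SE 0.40, adjusted p = 0.243). It was called by DESeq2 (1.58, adjusted p = 0.0226) and with all 6 groups in the fit (1.68, adjusted p = 0.0404). Leaving out sample 022 (1.87, adjusted p = 0.0478) or sample 029 (1.89, adjusted p = 0.0437) also gave a call. The change with DR in Ercc1Δ/- was 0.01 on the log2 scale (SE 0.58, adjusted p = 0.998) and -0.75 without sample 016 (SE 0.39, adjusted p = 0.388). DR in WT gave 0.14 (SE 0.56, adjusted p = 0.953).

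Macrophages and platelets can also hold Thbs1. The 6 macrophage markers summed to 439 to 829.2 CPM in Ercc1Δ/- and 197 to 298 CPM in WT mice at 22 weeks on AL. There, 5 of the 6 were called higher in Ercc1Δ/-, where 726 of all 12353 genes were called higher. The 5 platelet markers summed to 10.7 to 41.4 CPM in Ercc1Δ/- and 6.03 to 20.6 CPM in WT mice, which overlapped. Of these, Gp9 and Gp1bb were too low to test, and 0 of the 3 tested were called. The part of either in Thbs1 was not tested. The genes nearest to Thbs1 over the 28 samples by the same distance were Vcam1, Gldn and Cd82, at 0.47, 0.49 and 0.49 on the log2 scale, where the median gene was at 0.73 and Thbs1 itself lay 0.68 from its own mean. The gene lies on chromosome 2, bases 117941974 to 117957616 of the plus strand in GRCm39 (ENSMUSG00000040152), and had 9 to 283 counts per sample.

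The other thrombospondins were called in none of the comparisons. Thbs2, a thrombospondin of connective tissue that like Thbs1 forms trimers, was lowest in Ercc1Δ/- mice of 22 weeks on AL, at 54.7, 59.8, 67.1 and 70.7 CPM against 70.8, 77.8, 82.1 and 84.0 CPM in WT. The groups did not overlap, with a log2 difference of -0.33 (SE 0.14, adjusted p = 0.114). Thbs3, which forms pentamers, was higher on DR in the means of both genotypes, at 172 CPM ± 18.6 against 140 CPM ± 12.4 in WT (log2 change 0.31, SE 0.10, adjusted p = 0.130) and at 154 CPM ± 10.1 against 128 CPM ± 22.6 in Ercc1Δ/- (log2 change 0.29, SE 0.10, adjusted p = 0.162). Thbs3 lies within the annotated span of Mtx1 on the opposite strand, and whether the counting used strand is not given in the sources used here, so its counts are uncertain.

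Thbs4, a pentameric thrombospondin of tendon and injured tissue, had 10.5 counts per sample on average and was too low for the fit. In WT mice of 6 weeks it was at 2.45, 3.83, 5.40, 6.51 and 6.70 CPM and in Ercc1Δ/- mice at 1.51, 1.69, 1.84, 2.43 and 2.62 CPM. The highest Ercc1Δ/- mouse lay above the lowest WT mouse only, with an exact two-sided permutation p of 0.0159 that became 0.111 after Benjamini-Hochberg adjustment over the 7 comparisons of this gene. The other 6 exact p-values ran from 0.0556 to 0.5.

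Ccn2, which encodes connective tissue growth factor, was lower in Ercc1Δ/- mice at 6 weeks. WT mice were at 2667, 3112, 3137, 3969 and 4829 CPM and Ercc1Δ/- mice at 1305, 1496, 1611, 1986 and 3086 CPM. Only sample 002, the highest Ercc1Δ/- mouse, lay in the WT range. The log2 difference was -0.88 (SE 0.21, adjusted p = 0.0399), or 0.543 times the WT level. The call was lost when any one of samples 001, 009, 011, 008, 015 and 027 was left out, with adjusted p-values of 0.0779, 0.0918, 0.0740, 0.0713, 0.0715 and 0.112, and it was kept without sample 002 (log2 difference -1.13, adjusted p = 0.00209). It was lost as well without the filter on low counts (adjusted p = 0.0913), at equal depth (adjusted p = 0.0707), with only the compared groups in the fit (adjusted p = 0.133) and with males only (adjusted p = 0.225).

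The older AL mice had Ccn2 at 2473, 2748, 3213 and 3749 CPM in WT and at 1791, 1977, 2135 and 2150 CPM in Ercc1Δ/- mice. These did not overlap, but the log2 difference of -0.56 (SE 0.23) was not called (adjusted p = 0.133), except with only these 2 groups in the fit (-0.61, adjusted p = 0.00761). On DR, WT mice were at 1984, 2005, 2113, 2236 and 2513 CPM and Ercc1Δ/- mice at 1135, 1620, 1646, 1876 and 2444 CPM, with a log2 difference of -0.32 (SE 0.15, adjusted p = 0.170). Without sample 016, the highest of these, it was -0.46 and was called (SE 0.13, adjusted p = 0.0216). DR gave -0.47 in WT (SE 0.16, adjusted p = 0.173) and -0.23 in Ercc1Δ/- (SE 0.16, adjusted p = 0.533) on the log2 scale, the latter -0.36 without sample 016 (SE 0.13, adjusted p = 0.182). Age gave -0.22 in WT (adjusted p = 0.875) and 0.10 in Ercc1Δ/- (adjusted p = 0.884).

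Ccn2 is itself a gene of fast induction, and beside its difference at 6 weeks the 15 immediate early genes summed to 770 to 1515 CPM in WT and 509 to 949 CPM in Ercc1Δ/- mice, with Fosb called lower (log2 difference -2.19, SE 0.40, adjusted p = 0.0116) among the 13 tested. Their part in the difference of Ccn2 was not tested. The genes nearest to Ccn2 over the 28 samples were Itgbl1, Ltbp1 and Arid5b, at 0.25, 0.26 and 0.26 on the log2 scale, where the median gene was at 0.45. Ccn2 lies on chromosome 10, bases 24471333 to 24474900 of the plus strand in GRCm39 (ENSMUSG00000019997), and overlaps the lncRNA Gm15270 of the opposite strand, which had 621 counts over the 28 samples. Thbs1, Ccn2 and Fn1 were not in the promoter table.

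Fn1, which encodes fibronectin, was called in no comparison. In WT mice it was at 1917, 1937, 2138, 2445 and 2760 CPM at 6 weeks and at 1808, 1994, 2223 and 2408 CPM at 22 weeks on AL. In Ercc1Δ/- mice it was at 1390, 1680, 1812, 1977 and 2076 CPM and at 1683, 1713, 2053 and 2491 CPM. On DR, WT mice lay within 1762 to 2036 CPM, and Ercc1Δ/- mice were at 1458, 1536, 1732 and 1824 CPM with sample 016 at 6320 CPM. The log2 difference between genotypes on DR was 0.40 (SE 0.33, adjusted p = 0.501) with sample 016 and -0.20 (SE 0.11, adjusted p = 0.284) without it. The change with DR in Ercc1Δ/- turned likewise from 0.32 (SE 0.35, adjusted p = 0.735) to -0.26 (SE 0.11, adjusted p = 0.268). Beside its Fn1 and Thbs1, sample 016 held the macrophage markers at 1092 CPM in sum, and their part in its values was not tested.

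**Figure D4:**
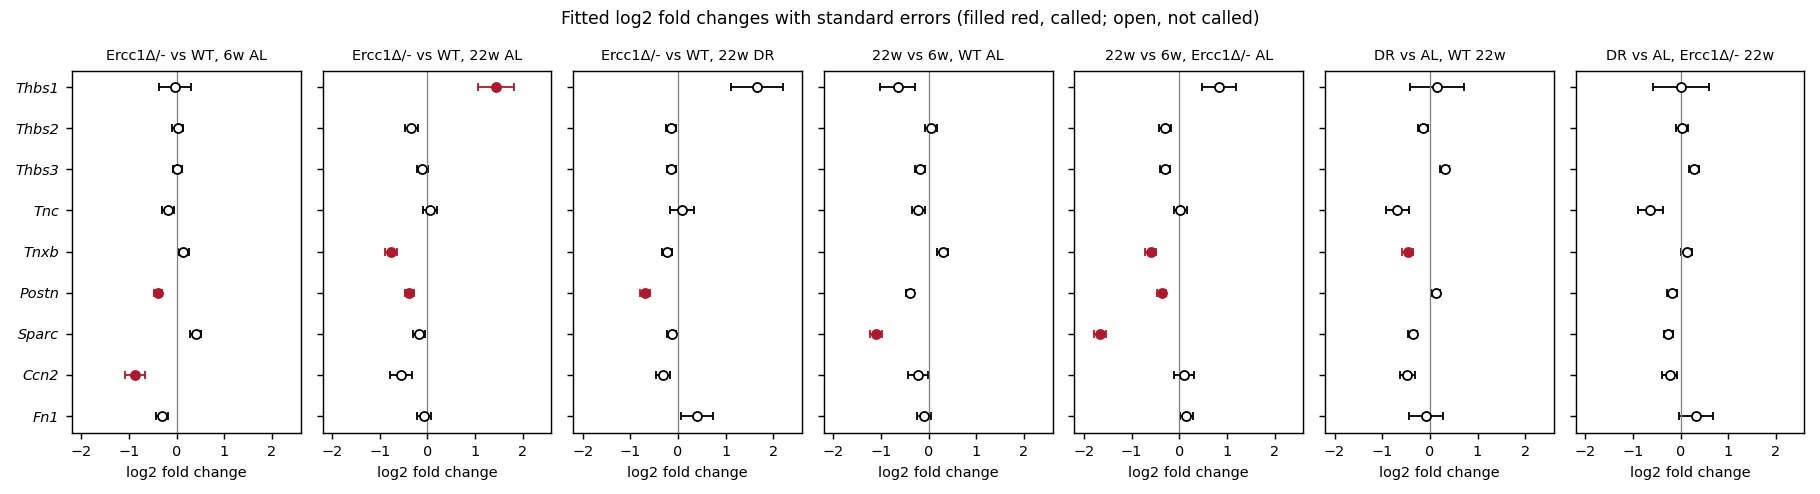
Log2 fold changes of the 9 tested genes with their standard errors in 7 two-group comparisons, with called genes filled in red. Sparc lies lowest in both age panels, Postn is called in all 3 genotype panels, Tnxb and Thbs1 are called on opposite sides at 22 weeks on AL, and DR in Ercc1Δ/- has no called gene.

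Over the comparisons, 9 of the 10 genes could be tested. Between genotypes at 6 weeks, 2 were called, Postn and Ccn2, both lower in Ercc1Δ/-, where 1.70% of all 12353 genes were called. At 22 weeks on AL, 3 were called where 12.0% of all genes were called, and the 2 lower ones, Postn and Tnxb, stood beside 6.16% of all genes called lower. On DR, 1 was called, Postn, where 13.0% of all genes were called. The median log2 differences of the 9 genes were -0.03, -0.18 and -0.14 in these comparisons, and those of all genes 0.02, 0.03 and 0.00.

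With age, 1 gene was called in WT, Sparc, where 0.235% of all genes were called. In Ercc1Δ/- 3 were called, Sparc, Postn and Tnxb, where 4.69% of all genes were called, and all 3 were lower, as were 2.57% of all genes. The age comparisons share their mice with those of genotype on AL. The median log2 change of the 9 genes was -0.22 in WT and -0.30 in Ercc1Δ/-, and that of all genes 0.00 and 0.01. In the interaction of genotype and age, 1 gene was called, Tnxb, where 0.842% of all genes were called.

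DR called 1 gene in WT, Tnxb, where 1.28% of all genes were called. In Ercc1Δ/- it called 0 of 9 in edgeR, where 1.64% of all genes were called by that tool. DESeq2 called 0 of the 9, and 344 of the 12346 genes it tested. In edgeR an unadjusted p under 0.05 was found for 3 of the 9 and for 1853 of all 12353 genes. In the interaction of genotype and diet 0 of 9 were called in edgeR, where 0.0971% of all genes were called by that tool. DESeq2 called 0 of the 9, and 42 of the 12346 genes it tested. In edgeR 1 of the 9 and 1077 of all 12353 genes had an unadjusted p under 0.05. The intervals of the change with DR in Ercc1Δ/- were widest for Thbs1 (-1.13 to 1.15 on the log2 scale) and Fn1 (-0.37 to 1.01). Without sample 016 they ran from -1.53 to 0.02 for Thbs1 and from -0.48 to -0.04 for Fn1.

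The counts of other lists that follow stand beside 1.70% of all genes called between genotypes at 6 weeks, 12.0% at 22 weeks on AL and 13.0% on DR, 4.69% with age in Ercc1Δ/- and 0.235% in WT, 0.842% in the interaction of genotype and age, and 1.28% with DR in WT and 1.64% in Ercc1Δ/-. Of 20 other matricellular genes, 14 could be tested. At 22 weeks on AL, 1 was called higher in Ercc1Δ/-, Spp1, which encodes osteopontin (log2 difference 5.44, SE 0.49, adjusted p = 4.03e-06). There were 5 called lower, among them Ccn5, a CCN protein that lacks the C-terminal domain of its relatives (-0.78, SE 0.12, adjusted p = 1.74e-04), Sparcl1, the nearest relative of Sparc (-0.84, SE 0.16, adjusted p = 0.00108), and Tgfbi (-0.74, SE 0.14, adjusted p = 0.00120). Their median log2 difference was -0.30. On DR, 2 were called higher, Spp1 (1.62, adjusted p = 0.00352) and Spock2 (0.52, adjusted p = 0.0208), and 4 lower, led by Sparcl1 (-0.87, adjusted p = 1.72e-07), Smoc2 (-0.75, adjusted p = 2.33e-04) and Smoc1 (-0.44, adjusted p = 6.60e-04). At 6 weeks Sparcl1 alone was called, and it was lower (-0.58, adjusted p = 0.0345).

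With age in Ercc1Δ/- mice, 3 of the 14 rose, Spp1 (log2 change 4.05, adjusted p = 2.16e-05), Ibsp (1.59, adjusted p = 0.00120) and Ccn3 (0.62, adjusted p = 0.0152), and 3 fell, Fstl1 (-1.03, adjusted p = 1.17e-06), Ccn5 (-1.01, adjusted p = 6.27e-06) and Ccn4 (-1.23, adjusted p = 0.00510). In WT mice Ibsp alone was called (1.29, adjusted p = 0.0224). DR lowered Spp1 in the mutant (log2 change -2.90, adjusted p = 1.24e-06) and raised Sparcl1 in both genotypes, by 0.35 in Ercc1Δ/- (adjusted p = 0.0428) and 0.44 in WT (adjusted p = 0.0117). In WT, Smoc1 also rose (0.42, adjusted p = 0.0145) and Ccn5 fell (-0.98, adjusted p = 0.0287). In the interaction of genotype and age, Spp1 (log2 difference 6.46, adjusted p = 3.54e-04), Fstl1 (-0.78, adjusted p = 0.00793) and Ccn5 (-0.77, adjusted p = 0.0166) were called. Spp1 was called in the interaction of genotype and diet (-3.87, SE 0.51, adjusted p = 6.55e-04).

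Of 18 receptor genes for these proteins, all were tested. At 6 weeks Itga5, the fibronectin receptor subunit (log2 difference -0.97, adjusted p = 4.54e-04), and Itga8, which pairs with integrin beta-1 (-0.71, adjusted p = 0.00198), were lower. In the older AL mice, Itga9, a tenascin-C receptor subunit (-0.998, adjusted p = 7.45e-06), Itga8 (-1.05, adjusted p = 1.10e-05), Cspg4 (-0.83, adjusted p = 1.17e-04) and Itga5 (-0.50, adjusted p = 0.0291) were lower, and on DR 5 were lower, led by Cspg4 (-0.87, adjusted p = 2.84e-07), Itga8 (-0.79, adjusted p = 2.17e-06) and Itga5 (-0.78, adjusted p = 0.00316). The median log2 difference of the 18 was -0.12 at 6 weeks, -0.16 at 22 weeks on AL and -0.11 on DR. With age in Ercc1Δ/- Itga9 (-0.66, adjusted p = 4.87e-04) and Cspg4 (-0.41, adjusted p = 0.0499) fell, and DR in WT lowered Sdc1 (-0.55, adjusted p = 0.0223) and Calr (-0.40, adjusted p = 0.0256). Itga9 was called in the interaction of genotype and age (-0.73, adjusted p = 0.0174).

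The 2 pathways of which Ccn2 is a known target were also counted. Of 15 TGF-beta genes, 3 were lower at 22 weeks on AL, where 6.16% of all genes were called lower, the ligands Tgfb3 (log2 difference -0.69, adjusted p = 9.20e-04) and Tgfb2 (-0.58, adjusted p = 0.00674) and the binding protein Ltbp1 (-0.58, adjusted p = 0.00150), and Ltbp2 was higher (0.37, adjusted p = 0.0243). On DR 6 were lower, led by Ltbp1 (-0.52, adjusted p = 2.58e-04), Smad7 (-0.73, adjusted p = 3.66e-04) and Tgfb2 (-0.81, adjusted p = 0.00241), and Tgfbr3 was higher (0.35, adjusted p = 0.0292), where 13.0% of all genes were called in either direction. Tgfb2 (-0.58, adjusted p = 0.0110) and Ltbp3 (-0.35, adjusted p = 0.0365) fell with age in Ercc1Δ/-, Tgfbr2 fell with DR in WT (-0.36, adjusted p = 0.0339), and Ltbp2 was called in the interaction of genotype and age (0.70, adjusted p = 0.0155). Of 12 tested YAP/TAZ-TEAD genes, 1 was lower at 22 weeks on AL, Tead3 (-0.56, adjusted p = 0.00577), a share near that of all genes, and 5 were lower on DR, led by Tead3 (-0.46, adjusted p = 0.00180), Yap1 (-0.40, adjusted p = 0.00383) and Lats2 (-0.44, adjusted p = 0.0131). Ccn1, 1 of these 5 (-1.16, adjusted p = 0.0161), was also 1 of the 4 other matricellular genes called lower on DR. Ankrd1 fell with DR in WT (-0.92, adjusted p = 0.0453).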

How the data were processed

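Total RNA was isolated from the aortic arch of 29 mice, and libraries for mRNA sequencing were read in pairs with molecular identifiers. The authors deposited raw counts per gene, which they made with bcl2fastq 2.20, fastp, STAR 2.7.10a on mouse build mm39 with Ensembl annotation, UMI-tools 1.1.2 to remove duplicates and HTSeq 2.0.2 over whole genes, introns included. The strand setting is not given in the sources used here. Their own tests used DESeq2 1.34.0 with group and sex. Lines of unassigned reads held 12.592 to 18.683% of the counted reads per sample and were left out. Symbols and coordinates came from a GENCODE annotation of GRCm39 later than the one used for counting.

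From the counts, 12353 genes were kept, each whose count exceeded 10 in over 10 samples of the 28. edgeR 4.0.16 in R 4.3.3 fitted group and sex by its quasi-likelihood test with TMM factors, in the 18 AL samples for genotype and age and in the 18 samples of 22 weeks for diet. All adjusted p-values in the text are Benjamini-Hochberg values of this test over all genes tested unless another tool is named. A call required an adjusted p of at most 0.05 and a 1.2-fold change, without the fold limit for interactions. Thbs4 was tested by exact two-sided permutation. Replicates were separate mice. Sample 003 was left out, as in the study. On simulated data for genotype at 22 weeks on AL (12353 genes, 100 changed at each size), 37 of 100 genes changed 1.5-fold and 88 of 100 changed 3-fold were called, with 11 unchanged genes called. In the same simulation for DR in Ercc1Δ/-, 31 of 100 genes changed 1.5-fold and 89 of 100 changed 3-fold were called, with 8 unchanged genes called. The alternatives were DESeq2 1.42.0, RLE size factors, no filter, sample 003 added, no sex term, other sets of groups in the fit, males only, thinning to 921167 counts and leaving out each sample, and, chosen after seeing the data, edgeR's earlier dispersion method. The members and the gene lists were chosen with earlier results of these data known. From each list other than cell type markers, in the comparisons described, called genes were named by smallest p, at most 3 in each direction, or all where at most 4 were called. Ccn1 was named besides, because the YAP/TAZ-TEAD and other matricellular lists share it. Nearest genes were the 3 with the smallest mean absolute difference of centred log2 CPM.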

Additional observations from a re-analysis of the deposited data

Results flagged for a closer look

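In 4 of the 60 groups of values examined, 1 sample lay far from the others of its group, where chance gives about 1 in 20. Sample 016 of the Ercc1Δ/- DR group had Thbs1 at 112 CPM, where the next mouse had 32.4 CPM, and Fn1 at 6320 CPM, where the next mouse had 1824 CPM. Sample 015, an Ercc1Δ/- mouse of 6 weeks, had Postn at 2009 CPM, where the next had 1751 CPM. Sample 004, an Ercc1Δ/- mouse of 22 weeks on AL, had Sparc at 2241 CPM, below the next at 2633 CPM.

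The change of Tnxb with age differed between the genotypes by -0.90 on the log2 scale (SE 0.17, adjusted p = 0.00972), with a log2 change of 0.29 in WT and of -0.60 in Ercc1Δ/-. With males alone the difference was -0.79 (adjusted p = 0.254).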

How the results depend on the processing

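The number of the 9 tested genes that were called moved by over 1.5 times in 20 of 88 counts under other settings. For genotype at 6 weeks it went from 2 to 0 with only the compared groups in the fit and with males only, to 1 at equal depth, and between 1 and 2 with 1 sample left out. For genotype at 22 weeks on AL it went from 3 to 1 with males only and between 1 and 3 with 1 sample left out. For age it went from 1 to 2 in WT by DESeq2 and with sample 003 added, and from 3 to 1 in Ercc1Δ/- with males only. For the interaction of genotype and age it went from 1 to 2 by DESeq2 and without the filter, and to 0 with males only. For DR in WT it went from 1 to 2 by DESeq2 and without the filter, to 0 with sample 003 added, without the sex term, with all 6 groups, with males only and at equal depth, and between 0 and 1 with 1 sample left out. For genotype on DR it went from 1 to 2 by DESeq2, with all 6 groups and with males only, and between 1 and 2 with 1 sample left out. Calls over all genes moved as well. With males only they went from 210 to 61 for genotype at 6 weeks and from 1487 to 361 at 22 weeks on AL. By DESeq2 they went from 29 to 106 for age in WT, and at equal depth from 158 to 55 for DR in WT. For genotype on DR with males only they fell from 1605 to 1530, while the count of the 9 genes rose. The males-only fits used fewer samples, and the cause of the other moves was not tested. Of 792 fits of single genes under 10 other settings, 760 kept the call, 20 lost it and 12 gained it, and of 900 with 1 sample left out, 877 kept it, 19 lost it and 4 gained it. No called value changed sign in these fits. No paired analysis was made, because each mouse gave 1 sample and the sample labels do not give the litter of any mouse.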
